A study of Mus musculus with 146 samples.

Results

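The comparison described here sets anti-HA immunoprecipitates against whole-brain input, in mice that had not been immunized. It covers all 716 genes of 1 deposited table, in 6 anti-HA and 6 input libraries out of 146 libraries in the series. Both groups came from the brains of F1 of C57BL/6 * SJL mice of the genotype Cx3cr1-CreER:RPL22-HA, and 6 IgG1 isotype immunoprecipitates of the same kind served as a control. All mice had received tamoxifen between 4 and 6 weeks of age, as 4 oral doses of 5 mg on alternate days; they were perfused with PBS and their brains homogenised with cycloheximide. An input of 10 µl was set aside before 10 µg of antibody was added to the cleared homogenate. The titles call these libraries non-immunized, while the treatment label of every library, these included, names relapsing-remitting experimental autoimmune encephalomyelitis (EAE), an induced inflammatory disease of the brain and spinal cord. The titles were followed. The labels do not give the age at sampling, the sex or whether a replicate is 1 mouse. They also do not say whether libraries of the same number come from 1 homogenate. The p-values therefore measure only the spread between libraries, which limma estimates over all 18 groups (99 libraries), other stages included.

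In these mice a tamoxifen-activated Cre recombinase, made where the fractalkine receptor gene Cx3cr1 is on, switches ribosomes to a tagged form of the large-subunit protein RPL22. An antibody to the HA tag then pulls down ribosomes, with the mRNA they carry, from the tagged cells. The IgG libraries, made without this antibody, also held reads of these genes, so an anti-HA value can include background. In the brain Cx3cr1 marks microglia, the resident macrophages of the tissue, and also the macrophages of the meninges and of the spaces around vessels, which tamoxifen labels too. Input RNA comes from every cell of the brain, so the ratio of anti-HA to input ranks genes by how far their transcripts are concentrated on the tagged ribosomes. Blood monocytes also express Cx3cr1 but are replaced after labelling, whereas microglia renew themselves locally.

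Every value is a number of reads divided by a size factor of its library. The libraries held 152704 to 386600 reads over the 716 genes in anti-HA, 49902 to 63387 in input and 13068 to 54952 in IgG. The table is a chosen list: by the authors' deposited table, every gene in it differed by 2-fold or more, at an adjusted p below 0.05, in 1 or more of 15 comparisons of disease stages, all among anti-HA groups. The values therefore say how these 716 genes rank, and not how all genes of the brain do. Of the genes that define the tagged cells, Cx3cr1, Csf1r, Tmem119 and Rpl22 itself are not among the 716, while P2ry12, P2ry13, Gpr34, Fcrls, Selplg and Siglech are. For 9 lists of markers, those of neurons, astrocytes, oligodendrocytes, their precursors, T and NK cells, B cells, pericytes and fibroblasts, ependyma and choroid plexus, and erythroid cells, 0 members are in the table, so the depletion of those cells' transcripts was not measured. Among the anti-HA libraries number 5 stood apart, and counts are given with and without it.

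Summed over the 716 genes, the anti-HA libraries reached 236003 to 448105 (median 387449) and the inputs 47442 to 58467 (median 51428). The groups did not overlap, and the anti-HA sums were 7.16-fold higher (exact two-sided permutation test of the mean log2 sum, n = 6 and 6, p = 0.00216, the smallest p it allows). The lowest anti-HA sum was that of library 5, and the next lowest was 373968. Abundant genes weigh most in a sum: the 15 measured genes of homeostatic microglia alone reached 99343 to 214210 in anti-HA. With each gene weighed alike, the mean log2(value + 1) differed by 2.35, against 2.84 for the log2 sum. IgG libraries summed to 34205 to 42388, below every input. Since the sums rise with the chosen genes themselves, any scaling that sets the libraries equal over these genes removes this difference.

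By gene, 588 of the 716 were higher in anti-HA than in input and 10 were lower at an adjusted p below 0.05 (limma, all 716 genes), which is 82.1% and 1.4% of the genes tested and 83.5% together. The median log2 fold change was 2.00, from -2.11 for Fabp5 to 7.34 for Selplg, and the middle 50% of genes lay between 0.89 and 3.61. A log2 fold change of at least 5 was reached by 78 genes, or 10.9%, and 191 genes, or 26.7%, lay between -1 and 1. In 485 genes, or 67.7%, the lowest anti-HA library was above the highest input, and in 3 genes, or 0.419%, the highest anti-HA library was below the lowest input, 68.2% in all. Without anti-HA library 5 the counts were 593 higher and 6 lower.

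**Figure D1:**
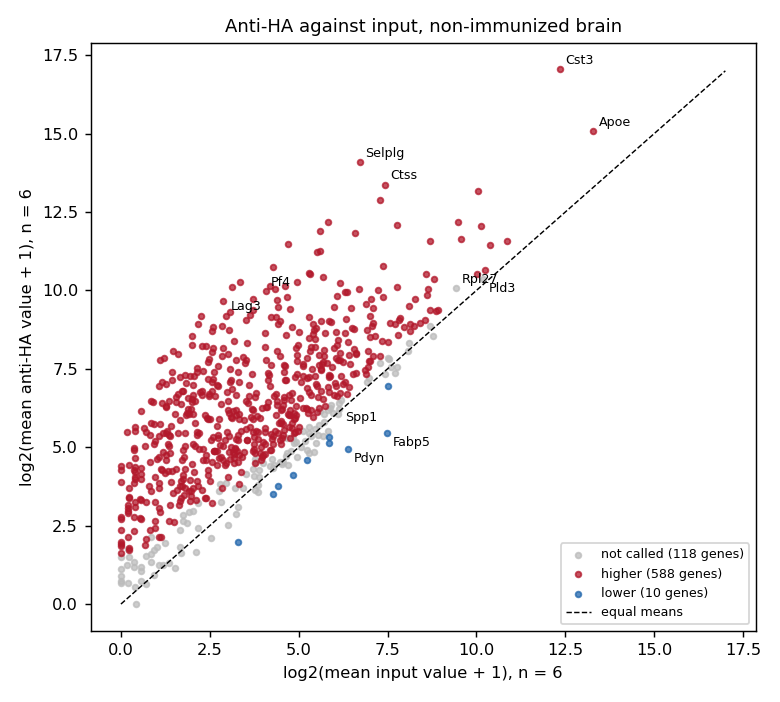
Mean value of each of the 716 genes in input (x axis) and in anti-HA (y axis), both as log2(mean + 1) over 6 libraries, with red for 588 genes called higher, blue for 10 called lower and grey for 118 not called. Most genes lie above the dashed line of equal means, Selplg and Cst3 far above it, and Fabp5 and Pdyn below it.

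The scale of these fold changes rests on the authors' size factors. The median of 2.00 moved to 0.25 with edgeR's TMM scaling, to -0.32 with quantile normalization and to -0.42 with libraries set to equal sums, and the counts moved to 284 higher and 223 lower, 216 and 289, and 209 and 288. TMM and equal sums multiply each library by 1 factor and leave the order of genes within it, so a gene is best read by its distance from the median of all genes. For each group of genes the calls under TMM, quantile normalization and equal sums are given beside those of the deposited scaling, and each count is to be read against the 82.1% of all genes called higher.

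**Figure D2:**
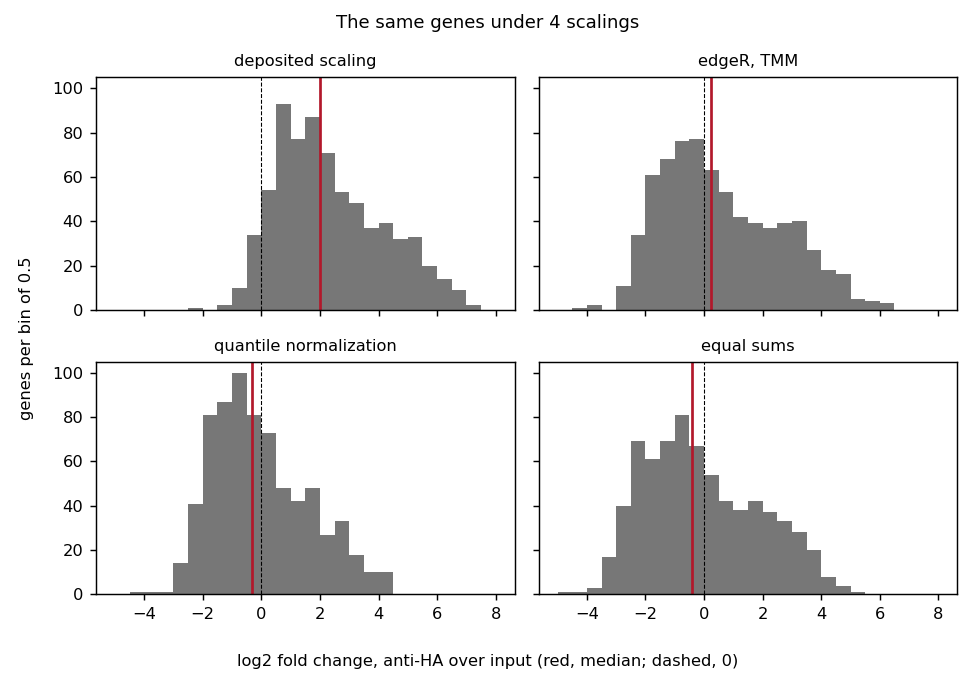
Histograms of the log2 fold change of anti-HA over input for the 716 genes under the deposited scaling, TMM, quantile normalization and equal sums, in bins of 0.5 log2 units, with the median in red and 0 dashed. The median sits at 2.00, 0.25, -0.32 and -0.42 in that order, and a long tail to the right is present in all 4.

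The gene with the highest fold change was Selplg (chr5:113818536-113832644 on the minus strand, GRCm38, protein-coding), which encodes PSGL-1, the ligand that leukocytes use to roll on selectins. Its values were 8959.6 to 21092 (median 18888) in anti-HA, 74.8 to 129.7 (median 109) in input and 73.3 to 119 (median 85.3) in IgG. The anti-HA libraries did not overlap the others, and library 5 was the lowest of them. The log2 fold change was 7.34 ± 0.23 (SE), with a 95% interval of 6.87 to 7.81 and an adjusted p of 6.4e-46. Selplg was first in rank whichever library was left out, and between 1 and 10 in rank under the other settings.

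The next 14 of the genes at or above the median level included, in order, Gp9, Il6ra, Cd37, Susd3, Slc15a3, Siglech, Hk3, Ptpn6, Fcrls, Grap, Slc11a1, Gpr84 and Ang, with log2 fold changes from 7.02 down to 6.39. Several encode proteins known from leukocytes. Il6ra (chr3:89864059-89913196) encodes the binding chain of the interleukin-6 receptor and had values of 127 to 282 (median 224) in anti-HA and 0 to 4.85 (median 0.472) in input, for a log2 fold change of 6.98 ± 0.37. Cd37, a tetraspanin of leukocytes, had values of 574 to 1671 (median 1311) and 3.74 to 17.5 (median 8.34), for 6.97 ± 0.30. Ptpn6, the phosphatase SHP-1 that acts below inhibitory receptors, had 442 to 1030.0 (median 836) and 3.77 to 8.58 (median 6.43), for 6.79 ± 0.34. Hk3, a hexokinase, and Slc11a1, the phagosomal metal transporter NRAMP1, were at 6.81 and 6.41. All 15 kept a positive sign and their call in every setting tried, and with any 1 library left out none ranked below 19. Under the other settings their ranks moved further, Il6ra to 46, Gpr84 to 45, Hk3 to 43, Grap to 42, Slc11a1 to 39 and Siglech to 38 at the lowest. Il6ra, Siglech, Hk3 and Gpr84 were each at 0 in at least 1 input library, and fold changes of genes with such low inputs on the log2(value + 1) scale are understated.

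**Figure D3:**
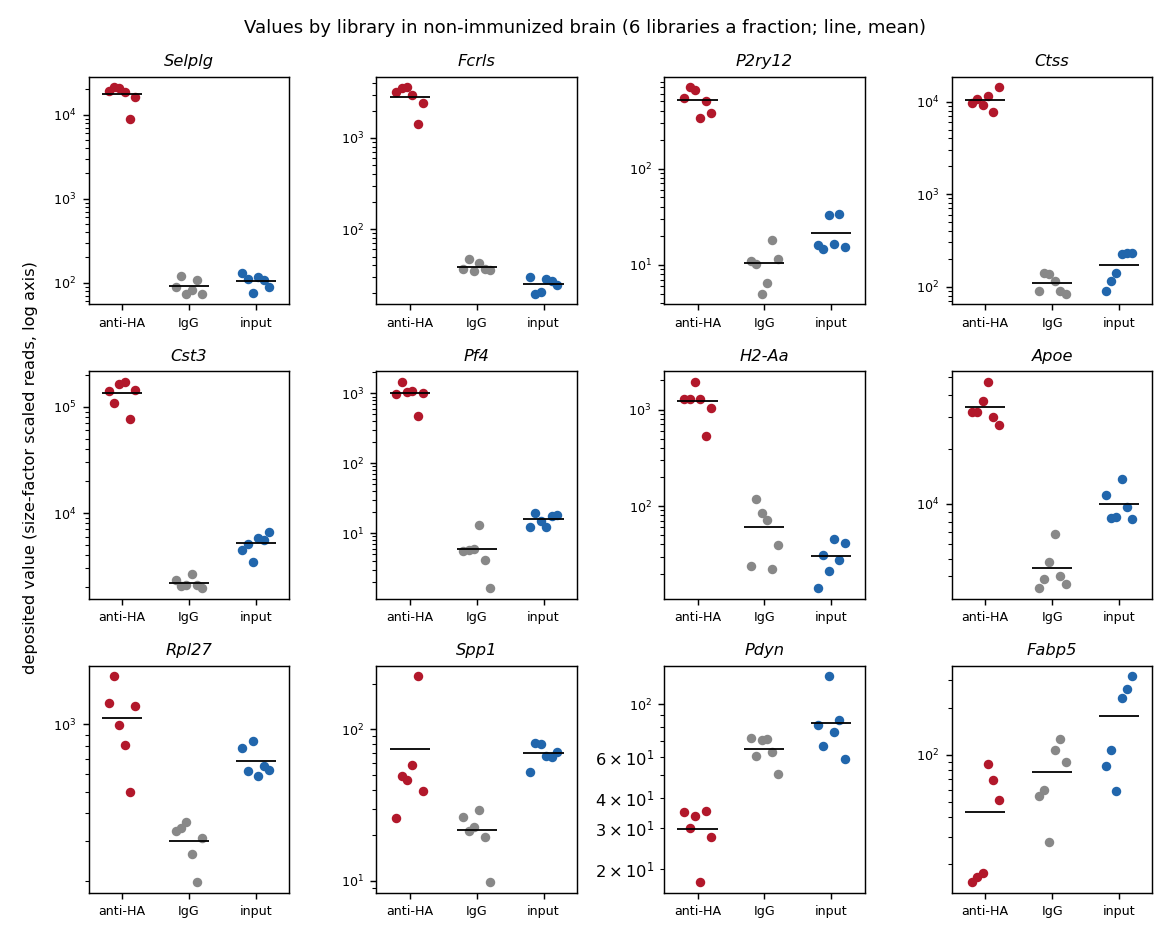
Deposited values (size-factor scaled reads, log axis) of 12 genes in the 6 anti-HA, 6 IgG and 6 input libraries of non-immunized brain, with a line at each mean. Selplg, Fcrls, P2ry12, Ctss, Cst3, Pf4, H2-Aa and Apoe are higher in every anti-HA library than in any input, Rpl27, Spp1 and Fabp5 overlap, and Pdyn lies below input in every anti-HA library.

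Promoters of the most enriched genes were searched for binding motifs of PU.1, the transcription factor that specifies macrophages, to show the sequence beside the ranking. RefSeq promoters (GRCm38.p6) were matched for 37 of the 50 genes with the highest log2 fold change, and the 250 bases before the start were read on both strands. GAGGAAGT, a PU.1 motif, was in 2 of 39 promoters of these genes, or 5.13%, against 4.09% of the 685 promoters of all table genes and 2.44% of the 32851 promoters of the reference. GGAANNGAA, the composite of PU.1 with IRF8, was in 2 of 39, or 5.13%, against 5.99% and 6.99%. In the 44 promoters of the 50 genes with the lowest fold change the motifs were in 2, or 4.55%, and in 1, or 2.27%, so the first was about as frequent there as in the highest genes. The motifs share the letters GGAA but were counted separately. These counts are a description with no test. The promoters that hold a match are shown as 80 bases, 5′ to 3′ on the gene's strand, with the match in capitals. In Cd37 and Pf4, the platelet factor 4 gene, the capitals are GAGGAAGT read on the opposite strand, and they begin 25 and 10 bases before the start. In Fcna, ficolin A, and Folr2, a folate receptor of tissue macrophages, they are GGAANNGAA on the gene's own strand and begin 148 and 136 bases before it. The windows lie at chr7:45238840-45238919 on the minus strand, chr5:90772355-90772434 on the plus strand, and chr2:25628079-25628158 and chr7:101857283-101857362, both on the minus strand.
Cd37: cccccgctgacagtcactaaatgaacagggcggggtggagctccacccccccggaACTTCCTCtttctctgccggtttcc
Pf4: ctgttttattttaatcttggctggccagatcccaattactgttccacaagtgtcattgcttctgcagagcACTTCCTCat
Fcna: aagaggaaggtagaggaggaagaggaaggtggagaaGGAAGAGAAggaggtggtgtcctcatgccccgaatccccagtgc
Folr2: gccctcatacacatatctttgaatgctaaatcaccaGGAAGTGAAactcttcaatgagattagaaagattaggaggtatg

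Genes that mark resting microglia were enriched. Of 32 listed genes 15 were measured, and all 15 were higher in anti-HA than in input, with a median log2 fold change of 5.19 against 2.00 over all genes; under TMM all 15 were called higher and under quantile normalization and equal sums 13, with no sign turned. The lowest of them was Sparc, a matrix protein, at 3.16, with values of 5724 to 13031 (median 9132) in anti-HA and 549 to 1343 (median 1174) in input. P2ry12 (chr3:59216272-59262871), the ADP receptor by which microglia extend processes towards injury, had 332 to 697 (median 522) in anti-HA, 14.5 to 33.9 (median 16.2) in input and 4.95 to 18.1 (median 10.5) in IgG. Its libraries did not overlap between anti-HA and input, and the log2 fold change was 4.57 ± 0.46 (adjusted p = 3.5e-15). The related receptor P2ry13 was at 6.14 ± 0.43, with 268 to 589 (median 415) against 3.02 to 9.35 (median 4.32), and the lysophosphatidylserine receptor Gpr34 at 4.51 ± 0.44, with 8.49 to 46.9 (median 29.8) against 0 to 0.944 (median 0). Fcrls, an Fc receptor-like scavenger receptor used to define mouse microglia, had 1411 to 3586 (median 3079.7) against 19.4 to 30.2 (median 25.6), for 6.73 ± 0.37. Siglech, a sialic acid receptor of microglia and of plasmacytoid dendritic cells, had 183 to 332 (median 269) against 0 to 4.04 (median 1.89), for 6.84 ± 0.45.

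Other genes of this list act in secretion, adhesion and signalling. Cst3 (chr2:148871722-148875692), the secreted protease inhibitor cystatin C, had 77735 to 173072 (median 143451) in anti-HA and 3474 to 6633 (median 5337) in input, for 4.68 ± 0.21. Adgrg1, an adhesion receptor that microglia share with neural progenitors, had 972 to 2142 (median 1904) against 129 to 212 (median 154), for 3.39 ± 0.22. Tgfbr1, the type I receptor for TGF-beta, a factor that maintains microglial identity, had 848 to 2049.8 (median 1443) against 25.8 to 50.5 (median 39.5), for 5.19 ± 0.24; it was the 1 measured gene of 14 listed for that pathway. Ltc4s, the leukotriene C4 synthase, was at 6.32 ± 0.27, with 1959 to 5915 (median 5062) against 43.01 to 73.4 (median 55.3). None of these 4 genes overlapped between the groups.

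All 7 measured G protein-coupled receptors of 31 listed were higher, with a median of 4.51; under TMM and equal sums 7 were called higher and under quantile normalization 6, with no sign turned. Their range was 2.46 to 6.41, the highest being Gpr84, a receptor for medium-chain fatty acids, at 116 to 445 (median 242) against 0 to 3.82 (median 1.94).

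**Figure D4:**
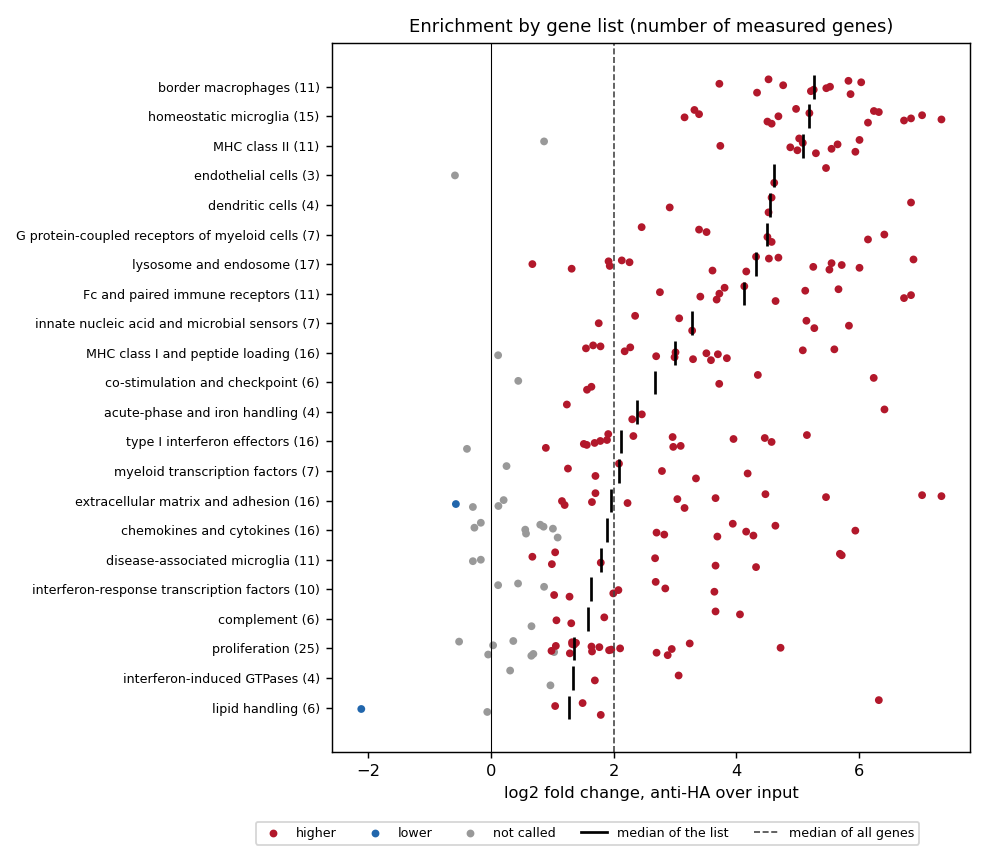
Log2 fold change of anti-HA over input (x axis) for each measured gene of the 22 lists with 3 or more measured genes (y axis, number measured in brackets), red for called higher, blue for called lower, grey for not called, with the list median as a black bar and the median of all 716 genes, 2.00, dashed. Lists of border macrophages, microglia and MHC class II lie to the right of the dashed line and lists of lipid handling, complement and proliferation to its left, where many signs turn under TMM, quantile normalization or equal sums.

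Markers of border macrophages were enriched as well as those of microglia. All 11 measured of 17 listed were higher, with a median of 5.26 and a range of 3.72 to 6.03, and all 11 were called higher under TMM, quantile normalization and equal sums. Pf4 (chr5:90772435-90773383), a chemokine of these macrophages, had 476 to 1466 (median 1023) in anti-HA, 12.1 to 19.4 (median 16.4) in input and 1.63 to 12.97 (median 5.59) in IgG, for 5.86 ± 0.33. Cbr2, a carbonyl reductase, had 232 to 809.7 (median 654) against 7.27 to 14.96 (median 11.9), for 5.46 ± 0.36. Cd209f, a lectin, and Fcna were at 5.83 ± 0.37 and 6.03 ± 0.41, and the mannose receptor Mrc1 at 4.34 ± 0.44, with 33.97 to 82.1 (median 54.1) against 0 to 4.67 (median 1.76). Summed over the 11 genes, values were 1373 to 4067 in anti-HA, 39.2 to 62.0 in input and 15.3 to 42.2 in IgG, and the anti-HA sums overlapped neither of the others. Siglec1 of this list was at 0 in every input library. Both kinds of macrophage carry the tagged ribosomes, and their parts in the enrichment of shared genes were not tested. In whole brain, fewer cells of a type and less RNA per cell cannot be told apart.

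Few markers of blood-borne and vascular cells were among the 716 genes. Of 16 genes for monocytes and infiltrating macrophages, only Ms4a4c was measured, at 0 to 4.98 (median 0.967) in anti-HA and 0 to 0.935 (median 0) in input, and it was not called (log2 fold change 0.67, 95% interval -0.27 to 1.61). Mmp9, a protease of neutrophils that other cells also make and the 1 measured of 14 neutrophil genes, had 67.9 to 147 (median 133) against 3.23 to 8.05 (median 5.29), for 4.29 ± 0.28. All 4 measured of 12 dendritic cell genes, Cd209a, Fscn1, Siglech and Bst2, were higher, at 4.52, 2.92, 6.84 and 4.57; under TMM 4 were called higher and under quantile normalization and equal sums 3, with no sign turned. Cd209a and Siglech are also on the lists of border macrophages and microglia. Of 18 endothelial genes 3 were measured: Pecam1 (4.62 ± 0.27) and Icam1 (5.46 ± 0.37), adhesion molecules that myeloid cells also express, were higher, and Ly6a was not called (-0.58, interval -1.58 to 0.42). Their summed values were 279 to 552 in anti-HA, 38.2 to 78.5 in input and 21.2 to 51.9 in IgG. The part of vascular or infiltrating cells in these values was not tested.

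Fc receptors and sensors of microbes were higher in anti-HA for every measured member on the deposited scaling, where 82.1% of all genes were, but 2 of the sensors turned negative under other scalings. All 11 measured Fc and paired immune receptors of 40 listed were higher, with a median of 4.13; 10 were called higher under TMM and quantile normalization and 11 under equal sums, with no sign turned. The inhibitory receptors Cd300lf and Fcgr2b were at 5.66 ± 0.44 and 4.64 ± 0.45. All 7 measured sensors of 36 listed were higher, with a median of 3.28, but under TMM, quantile normalization and equal sums only 5, 3 and 3 were called higher and 0, 1 and 0 lower; Nod1 turned negative under TMM, and Nod1 and Dhx58 under quantile normalization and equal sums. Tlr12, which senses profilin of parasites in mice, had 84.9 to 197 (median 121) against 0 to 2.86 (median 1.31), for 5.83 ± 0.36. Tlr2, a receptor for bacterial lipopeptides, had 85.1 to 159 (median 104) against 0 to 5.61 (median 1.95), for 5.27 ± 0.42, Naip2, a sensor of bacterial secretion systems, was at 5.14 ± 0.36 and Tlr1 at 3.28 ± 0.35.

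Genes of the lysosome spanned a wide range. All 17 measured of 38 listed were higher, with a median of 4.32 and a range of 0.68 to 6.88, but under TMM, quantile normalization and equal sums 11 each were called higher and 2, 2 and 6 lower; Ctsl, Lamp1, Cd63, Psap and Scarb2 turned negative under TMM, and 6 signs, these 5 included, turned under quantile normalization and equal sums. Ctss (chr3:95526786-95556403), the cathepsin that trims the MHC class II invariant chain, had 7785 to 14262 (median 10282) in anti-HA against 90.5 to 229 (median 182) in input, for 6.01 ± 0.35. Grn, the lysosomal protein progranulin, had 4180.2 to 8951 (median 8115) against 122 to 189.8 (median 154), for 5.55 ± 0.28, and the lysozyme gene Lyz2 1728 to 2870.1 (median 2546) against 29.9 to 67.00 (median 50.3), for 5.72 ± 0.46. Slc15a3, an endosomal peptide transporter, was at 6.88. At the other end, the general lysosomal membrane protein Lamp1 had 2937 to 4794 (median 4428) against 768 to 1597 (median 1106), for 1.94 ± 0.16, and Cd63 537 to 784 (median 657) against 328 to 474 (median 420.4), for 0.68 ± 0.20. Lamp1 and Cd63 lay below the median of all genes, while Ctss, Grn, Lyz2 and Slc15a3 lay more than 3 log2 units above it.

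MHC class II genes, which present antigen to CD4 T cells, were enriched in non-immunized brain. Of 13 listed 11 were measured and 10 were higher, with a median of 5.08; the same number were called higher under TMM, quantile normalization and equal sums, and only Ciita, the class II transactivator, turned negative, under quantile normalization. H2-Aa (chr17:34282744-34287823), a class II chain, had 534 to 1942 (median 1272) in anti-HA, 14.1 to 45.8 (median 29.3) in input and 22.3 to 119 (median 55.2) in IgG, for 5.30 ± 0.49. H2-Ab1 had 472 to 1812 (median 1144) against 11.1 to 28.6 (median 14.3), for 5.94 ± 0.51, and the invariant chain Cd74 471 to 3089.7 (median 1284) against 17.8 to 47.3 (median 39.2), for 5.08 ± 0.57. Every anti-HA library was above every input for these 3 genes. Ciita was at 0 in every input library and 0 to 2.93 in anti-HA, too low to give a ratio.

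Class I genes were mostly called higher on the deposited scaling, but fewer of these calls held under the other scalings. Of 24 listed genes of MHC class I and peptide loading 16 were measured and 15 were higher, against 82.1% of all genes. Their median was 3.00, against 2.00 over all genes. Under TMM 10 were called higher, under quantile normalization 8 and under equal sums 6, and 1, 2 and 3 lower. The signs of Nlrc5, Psmb10, Psme2 and Erap1 turned under all 3, those of Tapbpl and Psme1 under the last 2 and that of B2m under equal sums. The class I heavy chains H2-K1 and H2-D1 were at 3.59 ± 0.34 and 3.29 ± 0.33, with 651 to 1209.9 (median 1015) against 70.1 to 106 (median 78.5) for the first. The proteasome genes Psme1 and Psmb10 were at 2.27 ± 0.27 and 1.55 ± 0.21, near the median of all genes.

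Complement genes were called over input as often as all genes were, and mostly not over the isotype control. Of 22 listed 6 were measured and 5 were higher than input, against 82.1% of all genes, with a median of 1.58, below the 2.00 of all genes. The counts under TMM, quantile normalization and equal sums were 2 higher each and 2, 3 and 3 lower, and 4 of the 6 (C2, C3, C4b and Cfb) turned negative under quantile normalization and equal sums and the first 3 of these under TMM. Only 1 of the 6, the complement receptor chain gene Itgax (3.37 ± 0.45), was higher than IgG. C4b, which encodes complement C4, had 104 to 202 (median 119.7) in anti-HA, 39.6 to 108 (median 57.8) in input and 154 to 262 (median 208) in IgG. Every input but the highest lay below the lowest anti-HA library, while the IgG libraries were the highest of the 3 fractions on average. C4b was thus at 1.07 ± 0.31 over input and -0.70 ± 0.31 over IgG (adjusted p = 0.031). C3, the central component, was at 1.31 ± 0.42 over input and -0.42 ± 0.42 over IgG, and C2 was not called in either.

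Transcription factors lay around the median of all genes. Of 34 myeloid factors 7 were measured and 6 were higher, with a median of 2.09, and of 15 interferon-response factors 10 were measured and 7 were higher, with a median of 1.64. Called higher under TMM, quantile normalization and equal sums were 3, 2 and 2 of the first list, with 2, 2 and 3 lower, and 2, 1 and 1 of the second, with 2, 4 and 4 lower. In the first list Nfe2l2, Klf2 and Klf6 turned negative under all 3 other scalings and Atf3 under quantile normalization and equal sums. In the second, 4, 7 and 6 of the 10 signs turned under TMM, quantile normalization and equal sums. Cebpb, a factor of macrophage activation, had 291 to 603 (median 411) against 23.6 to 73.4 (median 39.5), for 3.34 ± 0.30, and Irf1 84.9 to 188 (median 173) against 8.08 to 20.03 (median 10.04), for 3.64 ± 0.42. Irf9 and Stat3 were at 2.84 ± 0.30 and 2.00 ± 0.24. Stat2, a partner of Irf9 in interferon signalling, had 45.8 to 67.2 (median 59.3) in anti-HA, 23.4 to 35.9 (median 26.9) in input and 58.4 to 80.9 (median 70.6) in IgG, so that it was higher than input (1.03 ± 0.25) and not called against IgG (-0.24 ± 0.25). The Krüppel-like factor Klf2 and the stress-response factor Atf3 were at 1.26 ± 0.33 and 2.09 ± 0.34, and Klf6 was not called (0.26, interval -0.53 to 1.04).

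Type I interferon effectors had a median log2 fold change close to that of all genes. Of 36 type I effectors 16 were measured and 15 were higher, against 82.1% of all genes, with a median of 2.12 against 2.00. The counts under TMM, quantile normalization and equal sums were 6, 4 and 4 higher and 2, 3 and 5 lower; 3, 8 and 5 signs turned. Bst2, or tetherin, had 301 to 816 (median 725) against 22.3 to 32.4 (median 26.2), for 4.57 ± 0.35, and Ifi27l2a 178 to 611 (median 475) against 15.5 to 33.97 (median 28.3), for 3.95 ± 0.47. Ifi35 was at 4.46 ± 0.35 and Ifitm3, which restricts viral entry, at 1.89 ± 0.41, the last with a negative sign under all 3. Of 22 interferon-induced GTPases 4 were measured and 2 were higher, Gbp5 and Gbp3, at 3.06 ± 0.63 and 1.70 ± 0.48, with Gbp3 negative under all 3 other scalings, where 1, 0 and 1 of the 4 were called higher and 0, 1 and 1 lower. Gbp2 and Gbp8 had at most 8.54 and 2.49 in any anti-HA library and were not called.

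On the deposited scaling, chemokines and cytokines were called higher less often than all genes. Of 37 listed chemokines and cytokines 16 were measured. Of these 8 were higher, against 82.1% of all genes, and 8 were not called, with a median of 1.90. Under TMM 8 were called higher and under quantile normalization and equal sums 6, with 1, 5 and 2 lower, and 4, 6 and 4 signs turned. Ccl24, an eosinophil attractant, had 77.6 to 197 (median 139) against 0 to 1.89 (median 1.29), for 5.94 ± 0.42, and the membrane-bound chemokine Cxcl16 66.7 to 302 (median 195) against 3.23 to 7.76 (median 5.88), for 4.64 ± 0.49. The monocyte attractant Ccl12 and the T cell attractant Ccl5 were at 4.16 ± 0.58 and 2.83 ± 0.50. The B cell chemokine Cxcl13 had 0 to 5.87 (median 0.607) in anti-HA against 0 to 1.01 (median 0) in input and was not called. Csf1, a growth factor for microglia, was not called either (-0.16, interval -0.54 to 0.22).

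Of 19 genes for co-stimulation and checkpoint receptors 6 were measured and 5 were higher, about the 82.1% of all genes, with a median of 2.68, or 2.23 with Pdcd1 at its bound. The counts under TMM, quantile normalization and equal sums were 3, 3 and 2 higher and 1, 2 and 1 lower; Cd40 and Cd83 turned negative under all 3 other scalings and Cd274 under TMM and quantile normalization. Lag3, an inhibitory receptor best known from T cells, had 495 to 828 (median 550.0) against 5.61 to 8.05 (median 6.57) in input and 1.83 to 12.97 (median 7.94) in IgG, for 6.24 ± 0.30, which placed it 19th. Pdcd1 (chr1:94038305-94052553), which encodes the receptor PD-1, had 11.96 to 26.4 (median 21.2) in anti-HA and was at 0 in every input and IgG library. Against a floor of 3 reads per input library, its mean was at least 7.10-fold higher than input. Icosl, a co-stimulatory ligand, was at 3.72 ± 0.45, and Cd83 was not called (0.45, interval -0.12 to 1.02). The 9 lists of other cells noted above include T cells, with 0 of 21 markers among the 716 genes.

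In all, 15 genes, Pdcd1 among them, were at 0 in every input library. Of these, 7 had an anti-HA mean above 2.81, the value that 3 reads take on average in an input library. They were Pdcd1, Tnfrsf13b, Siglec1, Cdkn2a, Wfdc17, Klrb1b and Oas1a. The lowest anti-HA value of Klrb1b and of Oas1a was 0. Tnfrsf13b, which encodes the TNF-family receptor TACI, and Siglec1, a sialic acid receptor, were at least 6.48-fold and 4.93-fold higher than input. With these 15 genes at their bound, the median log2 fold change of all genes was 1.98.

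Genes tied to microglia in disease and to lipids were mixed. Of 25 disease-associated genes 11 were measured and 9 were higher, with a median of 1.79 (8 higher without anti-HA library 5), and of 31 lipid genes 6 were measured, 4 higher and 1 lower, with a median of 1.27 (3 higher without that library). Called higher under TMM, quantile normalization and equal sums were 5, 4 and 4 of the first list, with 4, 6 and 5 lower, and 1 each of the second, with 2, 5 and 4 lower. Axl, Apoe, Cd63 and Ch25h of the first list, and Apoe, Ch25h and Plin2 of the second, turned negative under all 3 other scalings, and Lgals3 did under equal sums. Apoe (chr7:19696109-19699188), the lipid carrier that astrocytes make in quantity, had 27320.1 to 47259.6 (median 32139) in anti-HA, 8224 to 13770.2 (median 9018) in input and 3427 to 6795 (median 3945) in IgG, for 1.79 ± 0.21. Its groups did not overlap, yet its ratio was below the median of all genes. Cd52, a surface glycoprotein of leukocytes, had 669.6 to 1532 (median 963) against 15.1 to 25.2 (median 18.8), for 5.69 ± 0.46.

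Spp1 and Apoc1 were not called. Spp1 (chr5:104435118-104441050), which encodes osteopontin, had 26.2, 49.3, 46.0, 58.7, 226 and 39.3 in anti-HA libraries 1 to 6 and 52.3 to 81.4 (median 68.8) in input. Library 5 was far above the others, and the remaining 5 overlapped the inputs from below. The log2 fold change was -0.29, with an interval of -1.29 to 0.71 (adjusted p = 0.59). Apoc1, an apolipoprotein, was highest in the same library, at 165 against 32.7 to 64.6 in the other 5, and its log2 fold change was -0.06 (interval -0.83 to 0.72). In the same library Selplg, Cst3 and the sum over all genes were at their lowest.

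Proliferation genes had a median below that of all genes. Of 52 listed 25 were measured and 18 were higher, with a median of 1.36. The counts under TMM, quantile normalization and equal sums were 4, 1 and 1 higher and 5, 11 and 8 lower; 13, 18 and 16 signs turned. The highest was Mcm3, a subunit of the replication helicase, with 77.6 to 118 (median 106) against 1.87 to 6.68 (median 2.48), for 4.72 ± 0.32, while its partners Mcm6 and Mcm7 were at 1.64 ± 0.30 and 1.06 ± 0.23. Rrm1, the large subunit of ribonucleotide reductase, was at 1.36 ± 0.22 over input and 0.13 ± 0.22 over IgG, where it was not called. All 4 measured of 16 acute-phase and iron genes were higher, with a median of 2.38, but under TMM, quantile normalization and equal sums only 2, 1 and 1 were called higher and 0, 1 and 1 lower; Ftl1, the ferritin light chain, turned negative under all 3 other scalings, Saa3 under 2 and Hmox1 under equal sums. Ftl1 was not called within the libraries numbered 1 to 3 (0.95, limma adjusted p = 0.067), where its values were lower in all 3 fractions, and was called within numbers 4 to 6 (1.53). Hmox1, heme oxygenase 1, was at 2.46 ± 0.37, with 87.2 to 198 (median 143) against 18.7 to 28.2 (median 24.1). Saa3, a serum amyloid, had 21.3 to 52.98 (median 27.7) against 3.23 to 9.54 (median 5.24), for 2.30 ± 0.58. Of 32 matrix and adhesion genes 16 were measured, 12 were higher and Fam20c was lower, with a median of 1.97. The counts under TMM, quantile normalization and equal sums were 7, 5 and 5 higher and 5, 7 and 5 lower; 5, 7 and 7 signs turned. Tgm2, a transglutaminase, was at 4.47 ± 0.28.

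The genes lower in anti-HA than in input numbered 10 and were Fabp5, Pdyn, Atp10a, Cdc25b, Kif22, Magohb, Gla, Optn, Fam20c and Rspo1. The lowest was Fabp5 (chr3:10012548-10016607), a fatty acid binding protein of glia and neural progenitors. Its values were 15.3, 16.4, 17.4, 88.0, 69.1 and 51.3 in anti-HA libraries 1 to 6 and 84.5, 107, 58.9, 233, 263 and 320 in inputs 1 to 6. The libraries numbered 4 to 6 were higher than those numbered 1 to 3 in both fractions, so the groups overlap as a whole but not within either set of numbers. The log2 fold change was -2.11 ± 0.52 (adjusted p = 1.8e-04), and it was -2.24 within numbers 1 to 3 and -1.97 within numbers 4 to 6 (limma adjusted p = 0.0032 and 0.0098). IgG values of Fabp5, at 27.7 to 125 (median 74.5), divided the same way. Against IgG it was not called (-1.02 ± 0.52, adjusted p = 0.063) in the fit over all 6 numbers, which ignores this split; within each set of numbers every anti-HA library lay below every IgG library. Of the 716 genes 5 were apart by number in all 3 fractions, Fabp5, Ftl1, Psap and Pros1 lower in numbers 1 to 3 and St14 higher. Psap, Pros1 and St14 were higher than input within both sets.

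Pdyn (chr2:129686565-129699844), which encodes the opioid peptide precursor prodynorphin of neurons and is the 1 measured of 18 neuropeptide genes, had 17.6 to 35.2 (median 31.8) in anti-HA, 58.5 to 132 (median 78.9) in input and 50.5 to 72.2 (median 66.5) in IgG. All anti-HA libraries lay below all inputs and all IgG libraries. The log2 fold changes were -1.44 ± 0.26 over input (adjusted p = 5.4e-07) and -1.12 ± 0.26 over IgG (adjusted p = 6.4e-05). Atp10a, a lipid flippase, had 2.18 to 3.64 (median 2.92) against 5.66 to 15.1 (median 6.41), and Cdc25b, a cell cycle phosphatase, 2.93 to 14.9 (median 11.4) against 16.2 to 23.1 (median 17.8), for -1.23 ± 0.32 and -0.87 ± 0.30, again without overlap. The other 6 genes overlapped between groups, with log2 fold changes from -0.77 for Kif22, a mitotic kinesin, to -0.50 for Rspo1, a Wnt co-agonist. Without anti-HA library 5, Kif22, Gla, Optn and Rspo1 were no longer called, at adjusted p from 0.061 to 0.11 (limma). Cdc25b was no longer called without anti-HA library 4, Gla without input 3, Optn without input 1 or 6, and Rspo1 without anti-HA 1 or 2 or input 1, 4 or 6. Of the 10 genes, Pdyn, Atp10a and Fam20c were also lower than IgG.

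Among the 118 genes not called, the 6 with the highest anti-HA means were Pld3, Rpl27, Atp13a2, Sdc3, Snrpd3 and Snrpf. Pld3, a lysosomal nuclease of neurons and other cells, had 938 to 1549 (median 1432) in anti-HA and 886 to 1686 (median 1072) in input, with a log2 fold change of 0.19 (interval -0.26 to 0.63). The ribosomal protein gene Rpl27 had 501 to 1648 (median 1106) against 589 to 843 (median 639.6), with 0.56 (interval -0.02 to 1.15). Atp13a2, a lysosomal polyamine transporter, and Sdc3, a neural syndecan, were at 0.20 and -0.21, with intervals of -0.12 to 0.52 and -0.68 to 0.26. The splicing genes Snrpd3 and Snrpf were at 0.18 and -0.02, with intervals of -0.21 to 0.57 and -0.40 to 0.35. None of these intervals reaches the median of all genes, 2.00. Against IgG, Pld3, Rpl27, Snrpd3 and Snrpf were higher, at 0.65 ± 0.22, 1.76 ± 0.29, 1.64 ± 0.20 and 1.18 ± 0.19.

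The isotype control was the other reference. Over IgG 594 genes were higher and 7 lower (limma, 83% and 0.978% of 716, 83.9% together), with a median log2 fold change of 2.18, which other scalings moved to 0.32 (TMM), -0.25 (quantile) and -0.70 (equal sums), with 283 higher and 198 lower, 217 and 277, and 171 and 347. Of the 588 genes higher than input, 549 were also higher than IgG and 39 were not; the comparisons share the anti-HA libraries. IgG itself differed from input in 80 genes that were higher and 114 that were lower (11.2% and 15.9%, 27.1% together), or 205 and 54 with equal sums. The 2 extremes were Rpl39, a ribosomal protein gene, and Rps27l, a ribosomal protein-like gene, named here after their values were seen. Rpl39 had 91.1 to 149 (median 107) in IgG, 0.944 to 4.67 (median 2.22) in input and 10.9 to 61.03 (median 44.1) in anti-HA, for 5.15 ± 0.52 in IgG over input. Rps27l had 27.9 to 48.7 (median 37.9) in IgG and 131 to 223 (median 188) in input, for -2.26 ± 0.26. Ribosomal protein genes have many near-identical pseudogenes, among which reads may be divided, so both values are uncertain.

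The authors assigned the 716 genes to 6 numbered clusters in the authors' deposited table. The 124 genes of cluster 1 were all higher than input, against 82.1% of all genes, with a median log2 fold change of 3.85. The share called higher was 75.3% in cluster 2, 81.3% in cluster 3, 82.6% in cluster 4 and 85.7% in cluster 6. All genes were chosen on differences among anti-HA groups, the non-immunized one included. Enrichment by cluster is therefore not independent of that choice. Shares by cluster under other scalings were not computed. Cluster 2, with 292 genes, had a median of 1.42, and cluster 3, with 262 genes, 2.09; the 23 genes of cluster 4 and 14 of cluster 6 had 2.77 and 2.99, and the lone gene of cluster 5 was Spp1. These shares and medians are a description with no test.

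Enrichment over input was also compared between the non-immunized brains and those of the stage labelled Max, in mice of the same genotype and strain with EAE (6 anti-HA and 6 input libraries). The difference of the log2 fold changes, Max minus non-immunized, was tested directly. It was higher at Max in 174 genes and lower in 162 (limma, 24.3% and 22.6% of 716, 46.9% together), with a median of 0.30. With TMM the counts were 44 and 240 (median -0.53), with equal sums 132 and 172 (median 0.02) and with quantile normalization 163 and 162. A lower enrichment can come from a lower anti-HA value or from a higher input value, and both are given.

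The homeostatic genes in the table lost enrichment at Max. Of the 15 measured, 14 had a lower difference, against 22.6% of all genes. The median over the list was 5.19 without immunization and 3.02 at Max. Every gene was chosen on anti-HA differences between stages, so this count is not independent of that choice and does not cover the listed genes that were not measured. P2ry12 had 19.8 to 86.9 (median 64.97) in anti-HA and 14.6 to 29.6 (median 20.9) in input at Max, so that every anti-HA library lay below those without immunization, while the inputs lay within their former range. Its difference was -3.47 ± 0.66 (adjusted p = 1.4e-05), for P2ry13 -3.13 ± 0.61, for Gpr34 -3.33 ± 0.63 and for Siglech -3.30 ± 0.63. Selplg, Fcrls and Cst3 had -2.28 ± 0.33, -2.32 ± 0.53 and -1.86 ± 0.30. Hpgd, which inactivates prostaglandins, had the lowest difference of the genes chosen by rule, -4.58 ± 0.63, with 6.21 to 57.9 (median 39.4) in anti-HA and 15.3 to 42.8 (median 20.97) in input at Max, against 109 to 400.0 (median 236) and 2.86 to 16.2 (median 5.73) without immunization. Lyz2 took another course: its anti-HA values at Max were 5407 to 13662 (median 10670.3), above the former 1728 to 2870.1 (median 2546), but its inputs were 1735 to 5457 (median 2634) against the former 29.9 to 67.00 (median 50.3), and the difference was -3.93 ± 0.66. Of the 11 border macrophage genes 7 had a lower difference, against 22.6% of all genes. Pf4 and Mrc1 were among the 7, at -1.85 ± 0.47 and -2.17 ± 0.62. These genes passed the same choice on anti-HA stages. Calls at Max under other scalings are not reported here for either list. The 15 genes with the highest enrichment were chosen on the non-immunized libraries, so their lower difference, in 15 of 15, is not independent of that choice; the same holds for the 10 genes lower than input, which were higher in 10 of 10.

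Other genes gained enrichment. Slc2a6, a lysosomal hexose transporter, had 31.9 to 58.7 (median 37.7) in anti-HA and 42.7 to 77.4 (median 43.7) in input without immunization and 205 to 486 (median 349) and 28.4 to 50.2 (median 37.9) at Max, for a difference of 3.46 ± 0.36 (adjusted p = 3.3e-12). It was the highest difference among the genes chosen by rule, and its inputs at Max lay in or below their former range. Apoc1 went from -0.06 to 2.59, a difference of 2.65 ± 0.55, and Apoe from 1.79 to 3.07, a difference of 1.28 ± 0.29. Pdyn, below input without immunization, had 87.9 to 256 (median 197) in anti-HA and 71.04 to 89.6 (median 78.6) in input at Max, for a difference of 2.49 ± 0.37. Fabp5 gained 1.76 ± 0.74 (adjusted p = 0.043). The serpins Serpina3g and Serpina3f gained 2.93 ± 0.91 and 2.58 ± 0.93, from values of at most 3.02 in any non-immunized anti-HA or input library. They belong to a cluster of similar genes, and reads may be divided among these, so both values are uncertain; under TMM the sign for Serpina3f turned, to -1.64.

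For some highly enriched genes no difference was called. For Lag3 the difference was 0.15 (95% interval -0.69 to 0.99) and for Tlr12 -0.12 (interval -1.15 to 0.90), and these genes had log2 fold changes at Max of 6.39 and 5.71. Of the 11 class II genes 3 were lower at Max and 1 was higher, against 22.6% and 24.3% of all genes. The median of the list was 5.08 without immunization and 3.93 at Max. Calls of this list at Max under other scalings are not reported here. The differences for H2-Aa and Cd74 were -1.36 ± 0.69 and -1.03 ± 0.80, neither of them called, and that for Ctss was -2.52 ± 0.50.

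**Figure D5:**
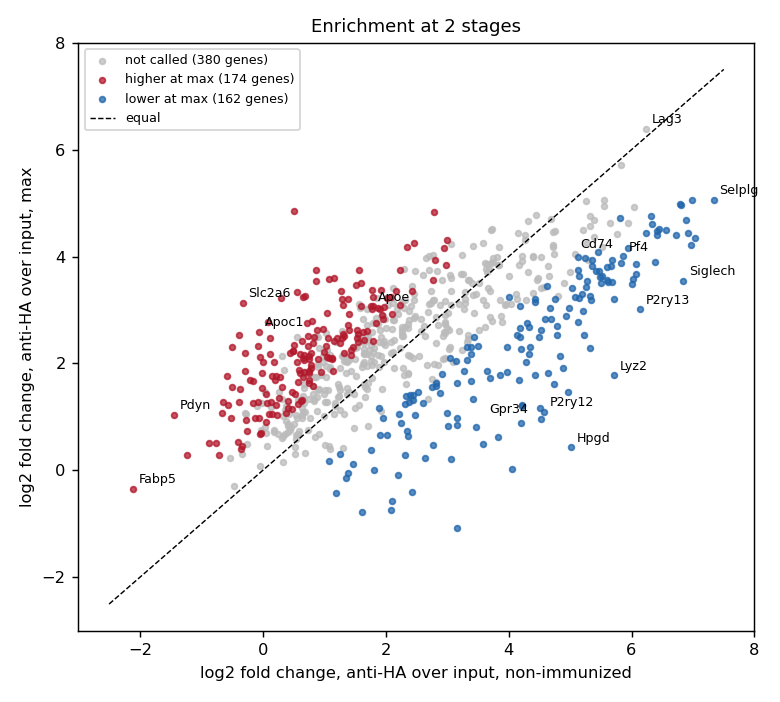
Log2 fold change of anti-HA over input in non-immunized brain (x axis) and at the stage labelled Max (y axis) for the 716 genes, with red for 174 genes higher at Max, blue for 162 lower and grey for the rest by the test of the difference. Genes such as P2ry12, Lyz2 and Hpgd lie below the dashed line of equal enrichment and Slc2a6, Apoc1 and Pdyn above it; the axes share no libraries.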

How the data were processed

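RNA was sequenced after polyA capture, per the labels' protocols. The submitters' processing notes name the build mm10; which aligner, counter, annotation and strand setting were used is not given in the sources used here. The values the authors deposited are a signal, the reads of a gene over its library's size factor: in each non-immunized library 100% of values were whole multiples of 1 step within 0.01 plus 1e-07 of the multiple. The authors' deposited table also holds log2 fold changes with adjusted p-values between stages, and a further column of another kind, the authors' cluster number.

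Groups follow the titles. Values were fitted as log2(value + 1) with limma 3.58.1 in R 4.3.3 over all 18 groups (99 libraries) and 716 genes, so that the groups share 1 estimate of the spread, with Benjamini-Hochberg adjustment over the 716 and a threshold of 0.05. A fold change on this scale understates the change of low genes. Whole reads were tested with edgeR 4.0.16 and DESeq2 1.42.0, leaving out input 1, IgG 3 and the Max anti-HA libraries 1, 3 and 4, which did not pass a further check of the recovered reads; edgeR with the deposited scaling called 595 genes higher and 10 lower. The script was tested on simulated data. The exact permutation test used scipy 1.17.1. Positions come from GENCODE M21 on GRCm38, in which 696 of the 716 symbols had 1 entry, and promoters from RefSeq, in which 554 matched.

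The genes described and the 35 lists were chosen with earlier results of these data known, so no list is independent evidence. The rule named the 15 highest fold changes among called genes at or above the median level, the lower genes, up to 4 members a list by anti-HA mean, a fixed set, 6 uncalled genes and the 4 highest and 4 lowest differences at Max. Tnfrsf13b, Siglec1, Csf1, Itgax, Rpl39, Rps27l and Psap, Pros1, St14 and members of lists given only by their change of sign were added after their values were seen. Results for some genes are not reported here. Alternatives were other pseudocounts, a filter, scalings, fits, tools, a replicate block and leaving out each library. Same-numbered anti-HA and input libraries were not taken as pairs, since the labels do not say that a number marks 1 homogenate, and their deviations correlated at 0.010 to 0.23, over 0.1 in 4 of 6.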

Additional observations from a re-analysis of the deposited data

Results flagged for a closer look

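In 225 groups of 6 libraries tested, 30 had a library whose gap to the nearest of the other 5 was over Dixon's 95% limit for 6 samples; chance gives about 1 in 20. Anti-HA library 5 accounted for 11 of them. Its sum over the 716 genes was 236003 against 373968 to 448105 in the other 5. It was also far below the others for Grap (882 against 1709 to 2201), Mmp9 (67.9 against 128 to 147), Bst2 (301 against 687 to 816), Tlr1 (23 against 31.1 to 34.9), Grn (4180.2 against 7188 to 8951), Lamp1 (2937 against 4149 to 4794), Ifi35 (80.1 against 169 to 214) and Snrpd3 (171 against 317 to 388), and far above them for Apoc1 (165 against 32.7 to 64.6) and Spp1 (226 against 26.2 to 58.7). Among the other anti-HA libraries, library 3 stood apart for C4b (202 against 104 to 126), library 4 for Cd300lf (282 against 106 to 140.1), C2 (47 against 11.2 to 23.2) and Lag3 (828 against 495 to 569.9), and library 6 for Tlr2 (159 against 85.1 to 108). Among the inputs the libraries far from the other 5 were input 1 for Stat3 (73.4 against 39.6 to 49.6) and Cxcl13 (1.01 against 0), input 2 for Il6ra (4.85 against 0 to 1.01), Susd3 (9.69 against 6.47 to 7.63) and Icosl (19.4 against 4.72 to 10.1), input 3 for Pdyn (132 against 58.5 to 85.7) and P2ry13 (9.35 against 3.02 to 4.85). Further ones were input 4 for Slc11a1 (12.4 against 2.01 to 4.67), Gbp8 (0.954 against 0) and Mcm3 (6.68 against 1.87 to 3.23), input 5 for Cd74 (17.8 against 37.8 to 47.3) and Ccl5 (2.42 against 7.48 to 10.5) and input 6 for Ifi35 (1.89 against 7.48 to 10.5). In input many of these values are a few reads.

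Enrichment over input differed between Max and non-immunized brain by the test of the difference itself (limma, adjusted over 716 genes) in 174 genes that were higher and 162 that were lower at Max. On the log2 scale it was higher at Max for Slc2a6 by 3.46, Serpina3g by 2.93, Apoc1 by 2.65, Serpina3f by 2.58, Apoe by 1.28, Fabp5 by 1.76 and Pdyn by 2.49. It was lower for the following genes, with these differences: Hpgd -4.58, Lyz2 -3.93, P2ry12 -3.47, Siglech -3.30, P2ry13 -3.13, Gpr34 -3.33, Selplg -2.28, Fcrls -2.32, Cst3 -1.86, Pf4 -1.85 and Mrc1 -2.17.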

How the results depend on the processing

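The 3 other scalings gave other counts, higher then lower. Anti-HA over input called 216 and 289 genes with quantile normalization, 209 and 288 with equal sums and 284 and 223 with TMM; over IgG, 217 and 277, 171 and 347, and 283 and 198. IgG over input called 205 and 54 with equal sums. The difference at Max was higher in 44 genes with TMM, against 118 with edgeR on the deposited scaling and the same libraries. With a pseudocount of 10 it was higher in 302. With libraries numbered 1 to 3 only, 6 genes were lower than input, IgG differed in 51 and 35, and the difference at Max was higher in 113; with numbers 4 to 6 only, 6 genes were lower than input, IgG was higher in 42 and the difference at Max was lower in 91. These splits by number were chosen after seeing the data, and the labels name no batch. Leaving out each library in turn gave 573 to 593 higher and 6 to 11 lower than input, the 6 without anti-HA library 5, and 582 to 594 and 6 to 8 against IgG. For IgG over input it gave 69 to 80 and 96 to 108, for the difference at Max 151 to 179 and 150 to 172, and for the log2 difference of the sums 2.78 to 2.97. Same-numbered libraries were not taken as pairs, and the replicate block gave 605 and 10 over input, 602 and 9 over IgG, 105 and 141 for IgG over input, and 217 and 187 at Max; 3 of 6 anti-HA libraries correlated best with their own number. The cause of these shifts was not tested. Of the other 224 values tried, counts stayed within 1.5 times, and differences of the sums kept their sign and a permutation p below 0.05. The log2 difference of the sums was 2.24 on reads not divided by size factors. It was 2.35 as the mean log2(value + 1) over the genes, against 2.84 in the main setting.

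Over all 716 genes the sign of the log2 fold change over input turned in 285 with TMM, 360 with quantile normalization and 362 with equal sums. Of the genes chosen by the naming rule, those that turned were, with TMM, Apoe -0.25, Atp13a2 -1.79, C2 -1.37, C3 -0.61, C4b -0.83, Cd63 -1.42, Cd83 -1.89, Ftl1 -0.67, Gbp2 -0.75, Gbp3 -0.30, Gbp8 -0.19, Ifitm3 -0.11, Klf2 -0.79, Klf6 -1.71, Lamp1 -0.17, Mcm6 -0.40, Mcm7 -1.05, Pld3 -1.80, Plin2 -0.12, Psmb10 -0.51, Rpl27 -1.46, Rrm1 -0.65, Snrpd3 -1.94 and Stat2 -1.03. With quantile normalization they were Apoe -1.14, Atf3 -0.29, Atp13a2 -2.25, C2 -1.65, C3 -1.10, C4b -1.22, Cd63 -1.81, Cd83 -1.81, Cxcl13 -0.61, Ftl1 -1.16, Gbp2 -1.34, Gbp3 -0.76, Gbp8 -0.91, Ifitm3 -0.40, Klf2 -1.005, Klf6 -1.92, Lamp1 -0.37, Mcm6 -0.67, Mcm7 -1.16, Ms4a4c -0.82, Pld3 -1.89, Plin2 -0.81, Psmb10 -0.86, Psme1 -0.028, Rpl27 -1.85, Rrm1 -0.85, Saa3 -0.20, Snrpd3 -2.19, Stat2 -1.11 and Stat3 -0.32. With equal sums they were Apoe -1.05, Atf3 -0.59, Atp13a2 -2.63, C2 -2.02, C3 -1.33, C4b -1.74, Cd63 -2.16, Cd83 -2.35, Ftl1 -1.59, Gbp2 -1.36, Gbp3 -0.87, Gbp8 -0.057, Hmox1 -0.32, Ifitm3 -0.89, Klf2 -1.49, Klf6 -2.52, Lamp1 -0.90, Mcm6 -1.09, Mcm7 -1.73, Ms4a4c -0.088, Pld3 -2.65, Plin2 -1.22, Psmb10 -1.28, Psme1 -0.56, Rpl27 -2.28, Rrm1 -1.41, Saa3 -0.30, Snrpd3 -2.65, Stat2 -1.75 and Stat3 -0.82. Genes near 0 turned elsewhere: Apoc1 to 0.047 with edgeR and DESeq2 on reads, 0.22 with numbers 4 to 6 and from -0.36 to 0.10 with 1 library left out, the lowest without anti-HA library 5; Snrpf to 0.057 with library weights, 0.38 with numbers 1 to 3 and from -0.11 to 0.11 with 1 library left out; Spp1 to 0.034 with edgeR and 0.25 with numbers 4 to 6; Klf6 to -0.10 with numbers 1 to 3; and Gbp8 to -0.32 and Ms4a4c to -0.28 with numbers 4 to 6. The difference at Max for Cxcl13 turned to -1.24 with DESeq2, -1.79 with edgeR, -3.71 with TMM and -0.58 with equal sums, and that for Serpina3f to -1.64 with TMM. Over all settings and single genes, 86 values lost and 68 gained a call, and 3491 kept both sign and call. Some of the most enriched genes, such as Il6ra and Gpr84, held few reads in input, which limits their ratios.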
